A study of Mus musculus with 24 samples.

Results

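The genes described here are the replication-dependent histone genes of the mouse, and the question is where MYT1L, a zinc finger transcription factor of neurons, was mapped at their starts. They were chosen by symbol as all protein-coding genes of build mm10 whose names begin with Hist1h, Hist2h, Hist3h or Hist4h, which gave 67 of 21938 protein-coding genes. The family was picked out because an earlier pass over these same lists showed many sites at its members, so the counts at their starts are given as descriptions with no test. Of the 67 genes, 54 lie on chromosome 13, 10 on chromosome 3, 2 on chromosome 11 and 1 on chromosome 6. By type, 6 encode the linker histone H1, 18 H2A, 18 H2B, 12 H3 and 13 H4. The files hold positions of sites and no RNA, so neither the replication dependence of each gene nor the cell types of the tissue could be checked against expression.

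Sites were mapped by CUT&RUN, a method in which an antibody brings a nuclease to the chromatin around a bound protein and the released DNA fragments are sequenced. The labels give C57BL/6J as the strain of all samples, while the methods name C57BL/6N for the making of the mutant line. The groups were cortex of WT embryos at E18.5, shortly before birth, prefrontal cortex of newborn WT mice (P0), prefrontal cortex of adult mice of 3 months heterozygous for a germline frameshift mutation in the first coding exon of Myt1l (HET), and prefrontal cortex of adult WT mice of the same age. Each of the 4 groups had 3 MYT1L and 3 IgG libraries. The methods of the study give the prefrontal cortex as the tissue for E18.5 too. The 4 deposited lists each merge the MYT1L libraries of a group and give a start and an end per site with no height, so each group has 1 value, there is no replicate error, and no test between groups was possible. Depth was unknown, and the labels do not say if the libraries of a group are from different animals. By the methods, cells were counted out for each animal and then divided between both antibodies, so a MYT1L and an IgG library can share an animal, with the pairs not stated. E18.5 and P0 were sequenced in run 1 by their labels and the adult groups in run 2, so an effect of age and one of the run cannot be told apart. The lists held 14477 sites at E18.5, 40698 at P0, 56937 in adult HET and 32145 in adult WT, with median widths of 593, 276, 108 and 167 bp.

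Replication-dependent histone genes supply the histones that package newly copied DNA. Most are short and without introns, they lie in clusters, and their mRNAs end in a stem-loop in place of a poly(A) tail. They are switched on in S phase by the coactivator NPAT, and neurons, which have left the cell cycle, are not expected to replicate DNA. H2A and H2B form dimers, H3 and H4 form the tetramer at the core of the nucleosome, and H1 binds the linker DNA. In the clusters many H2A and H2B genes stand head to head and share the short stretch between their starts.

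Nearly all histone genes had a MYT1L site within 1 kb of a start before and at birth, and most still had one in the adult WT list. A gene was counted when a site came within 1 kb of an annotated transcription start. This held for 62 of the 67 histone genes at E18.5 (92.5%), where 27.7% of all protein-coding genes had such a site. At P0 it held for 61 (91.0%, against 41.8% of all protein-coding genes). In the adult HET list it held for 32 (47.8%, against 12.1%), and in the adult WT list for 50 (74.6%, against 13.9%). Most histone starts are rich in CpG dinucleotides (73.1%, against 44.4% of all genes), and CpG-rich starts in general more often had a site. Among the 9691 CpG-rich genes that are not histone genes, the shares were 47.9% at E18.5, 68.7% at P0, 16.1% in adult HET and 20.8% in adult WT. The 49 CpG-rich histone genes had 93.9%, 93.9%, 51.0% and 79.6% in the same order of lists, and the other 18 had 88.9%, 83.3%, 38.9% and 61.1%.

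**Figure D1:**
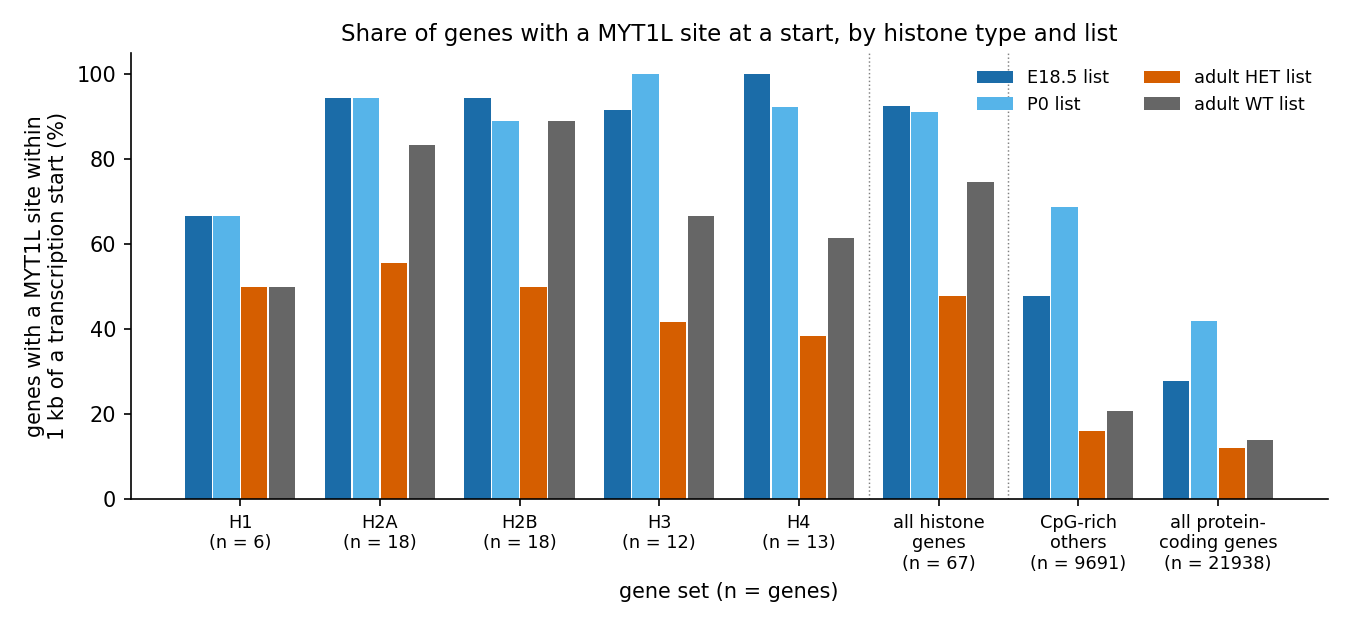
Share of genes (%, vertical axis) with a MYT1L site within 1 kb of a transcription start in the E18.5, P0, adult HET and adult WT lists (bars, 1 merged value each, no error), for the 5 histone types, all 67 histone genes, CpG-rich genes that are not histone genes, and all protein-coding genes. In each list the bar over all histone genes is above those of CpG-rich others and of all genes, and adult HET is below adult WT in every type except H1, where both are at 50%.

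The sites lay over the starts themselves more often in some lists than in others. The annotated start was inside a site for 60 histone genes at E18.5, 47 at P0, 9 in adult HET and 36 in adult WT, against 23.6%, 31.1%, 2.52% and 6.43% of all protein-coding genes. Thus in the adult HET list the sites near histone genes mostly did not include the start, while in the adult WT list they mostly included it. Among genes with a site within 1 kb of the 5′ end, this differed between the lists over all genes too. A start was inside a site for 28.1% of such histone genes in adult HET, against 27.2% of such protein-coding genes. These shares were 96.8% against 86.7% at E18.5, 77.0% against 77.1% at P0 and 72.0% against 53.6% in adult WT. A site within 1 kb was found in all 4 lists for 26 histone genes (38.8%), against 2.91% of all protein-coding genes and 4.75% of the CpG-rich genes that are not histone genes. In both adult lists it was found for 27, against 4.3% of all protein-coding genes. Between the adult lists, 5 histone genes (7.46%) had a site in HET and none in WT, which was near the share of all protein-coding genes (7.82%). The reverse, a site in WT and none in HET, was found for 23 (34.3%, against 9.55%), and 12 had a site in neither list (17.9%, against 78.3%). Sites near histone genes can be shared by neighbouring genes. The distinct sites numbered 50 at E18.5, 63 at P0, 23 in adult HET and 42 in adult WT. When each site was given only to the protein-coding gene with the nearest start, fewer histone genes had a site. The counts were then 45 at E18.5, 48 at P0, 21 in adult HET and 37 in adult WT. No shares of all protein-coding genes are given for this rule, so these counts have no background beside them.

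Parts of the family are near-identical copies, which bears on where reads can be placed. Reads were 40 bp at each end of a fragment, and a 40-base stretch found at more than 1 place of the genome gives no unique position by itself. Of the 40-base stretches inside sites near histone genes, such copies made up 25.4% at E18.5, 17.6% at P0, 18.4% in adult HET and 15.2% in adult WT. Near all protein-coding genes the shares were 1.92%, 1.7%, 6.16% and 4.03% in the same order of lists. With only the sites in which less than 50% of the stretches were repeated, 51 histone genes had a site at E18.5, 53 at P0, 23 in adult HET and 43 in adult WT, and 18 had one in all 4 lists. The shares of all protein-coding genes under this filter are not given here, so these counts have no background beside them. The genes made up wholly of such stretches were Hist1h2bq, Hist1h2ao, Hist1h2ap, Hist1h2br and Hist2h2aa2. All other counts use every site, and the part of sequence copies in them was not tested further.

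The promoters of 1 or 2 members of each type are printed for the elements known from histone promoters. Each is the 250 bases before the RefSeq start (RefSeq, GRCm38.p6), printed 5′ to 3′ on the strand of the gene, for the member that, among the 62 with a RefSeq promoter, had a site in the most lists and then the most bp covered, with Hist1h1c and Hist1h4c as the next of their types. Hist1h3f and Hist1h3a had more bp covered than Hist1h3c but had no RefSeq promoter here. Capitals mark 5 words searched on both strands: AAAGTT, the core of the MYT1L motif, CCAAT (the CCAAT box), TATAAA (the TATA box), ATTTGCAT (the octamer of H2B promoters) and AAACACA (the H1 box). Words on the other strand appear as their reverse complement, and none of the words is contained in another.
Hist1h1a (H1, chr13:23763418-23763667, plus strand): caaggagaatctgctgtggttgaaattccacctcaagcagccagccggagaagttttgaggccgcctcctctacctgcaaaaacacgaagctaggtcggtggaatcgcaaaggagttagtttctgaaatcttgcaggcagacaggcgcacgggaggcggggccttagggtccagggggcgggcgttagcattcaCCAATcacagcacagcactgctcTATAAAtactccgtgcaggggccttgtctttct
Hist1h1c (H1, chr13:23738557-23738806, plus strand): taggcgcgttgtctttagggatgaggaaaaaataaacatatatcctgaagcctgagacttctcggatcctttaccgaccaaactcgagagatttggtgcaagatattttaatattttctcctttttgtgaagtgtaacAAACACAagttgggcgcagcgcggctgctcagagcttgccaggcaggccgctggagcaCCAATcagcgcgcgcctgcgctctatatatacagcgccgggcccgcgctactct
Hist1h2ai (H2A, chr13:21716162-21716411, plus strand): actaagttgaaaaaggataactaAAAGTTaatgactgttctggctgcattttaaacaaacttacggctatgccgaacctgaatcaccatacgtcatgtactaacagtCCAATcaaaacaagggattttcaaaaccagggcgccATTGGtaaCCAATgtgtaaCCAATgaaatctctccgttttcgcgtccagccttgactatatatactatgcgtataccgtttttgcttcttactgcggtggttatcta
Hist1h2bb (H2B, chr13:23746484-23746733, plus strand): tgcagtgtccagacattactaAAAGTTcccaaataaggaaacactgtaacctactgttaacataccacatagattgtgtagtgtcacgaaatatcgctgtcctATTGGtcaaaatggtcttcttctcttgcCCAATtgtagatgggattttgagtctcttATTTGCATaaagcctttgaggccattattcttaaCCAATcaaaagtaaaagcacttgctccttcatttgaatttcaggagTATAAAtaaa
Hist1h3c (H3, chr13:23745522-23745771, minus strand): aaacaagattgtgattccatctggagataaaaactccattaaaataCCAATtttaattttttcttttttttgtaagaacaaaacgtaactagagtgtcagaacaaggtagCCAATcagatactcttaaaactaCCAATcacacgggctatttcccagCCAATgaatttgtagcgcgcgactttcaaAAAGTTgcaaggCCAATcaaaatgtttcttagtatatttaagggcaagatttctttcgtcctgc
Hist1h4h (H4, chr13:23530794-23531043, plus strand): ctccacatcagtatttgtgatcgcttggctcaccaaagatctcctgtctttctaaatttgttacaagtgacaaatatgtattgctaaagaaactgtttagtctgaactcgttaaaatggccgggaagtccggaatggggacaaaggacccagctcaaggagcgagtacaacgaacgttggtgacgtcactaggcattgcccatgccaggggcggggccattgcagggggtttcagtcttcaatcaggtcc
Hist1h4c (H4, chr13:23698459-23698708, minus strand): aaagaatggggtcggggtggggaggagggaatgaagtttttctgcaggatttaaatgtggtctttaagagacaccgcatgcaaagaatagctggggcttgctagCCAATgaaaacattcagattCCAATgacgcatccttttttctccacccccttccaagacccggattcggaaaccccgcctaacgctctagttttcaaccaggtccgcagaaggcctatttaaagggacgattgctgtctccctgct

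The printed promoters differ by type in which words they hold. Hist1h1a has a CCAAT word at -56 and a TATA word at -33 (first base, counted from the start), and Hist1h1c has the H1 box at -112 and a CCAAT word at -54. The H2A gene Hist1h2ai holds 4 CCAAT words, and the H2B gene Hist1h2bb holds the octamer at -90, between CCAAT words. Hist1h3c has 5 CCAAT words and an AAAGTT word at -64. Hist1h4h holds none of the 5 words in this window, and the H4 gene Hist1h4c holds 2 CCAAT words. Of the 67 histone genes, 62 had a RefSeq promoter, and they were set beside all 32851 promoters of the same table and length. CCAAT was in 53 of the 62 (85.5%, against 37.4% of all promoters) and was held by every H1, H2A, H2B and H3 promoter but by 3 of 12 of H4. TATAAA was in 35 (56.5%, against 13.6%). The octamer was in 13 (21%, against 1.74%), of which 7 were H2A and 6 H2B promoters. The H1 box was in 9 (14.5%, against 7.18%), among them 5 of the 6 H1 promoters. The MYT1L core was in 12 (19.4%, against 14.1% of all promoters): 3 H2A, 4 H2B, 4 H3 and 1 H4 promoter. The windows of head-to-head genes overlap, so 1 word can be counted for both genes. Both Hist1h2ah and Hist1h2bk were counted for the octamer, and both Hist1h2bl and Hist1h2ai for the MYT1L core. Within 75 bp of the middle of the sites near histone genes, AAAGTT was found in 10% of sites at E18.5, 14.3% at P0, 13% in adult HET and 14.3% in adult WT. Near all protein-coding genes those shares were 9.67%, 10.8%, 10.4% and 8.62%. These matches describe letters in the windows and say nothing on whether a factor was bound there.

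The length of DNA inside sites shows how broadly each start was covered. It was counted within 1 kb on either side of the 5′ end of the gene. Among histone genes with a site there, the median was 1139 bp at E18.5, 754 bp at P0, 234 bp in adult HET and 343 bp in adult WT. Over every protein-coding gene with a site this close to its 5′ end, the medians were 633, 477, 130 and 230 bp in the same order of lists. The sites themselves were also wide for their lists. Near histone genes their median width was 978.5 bp at E18.5, 541 bp at P0, 231 bp in adult HET and 321.5 bp in adult WT, against 627.5, 341, 118 and 205 bp near all protein-coding genes. The widest 10% of sites of a list held 32.0% of the sites near histone genes at E18.5, 34.9% at P0, 73.9% in adult HET and 23.8% in adult WT. For sites near all protein-coding genes these shares were 12.4%, 14.2%, 22.0% and 15.8%. The whole gene was inside sites for 15 histone genes at E18.5, 2 at P0 and none in the adult lists. Of all protein-coding genes with a site this close, the same held for 20 of 5508 at E18.5 and 5 of 8219 at P0. It held for none in the adult lists. Most histone genes are short, and the part of gene length in these counts was not tested.

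**Figure D2:**
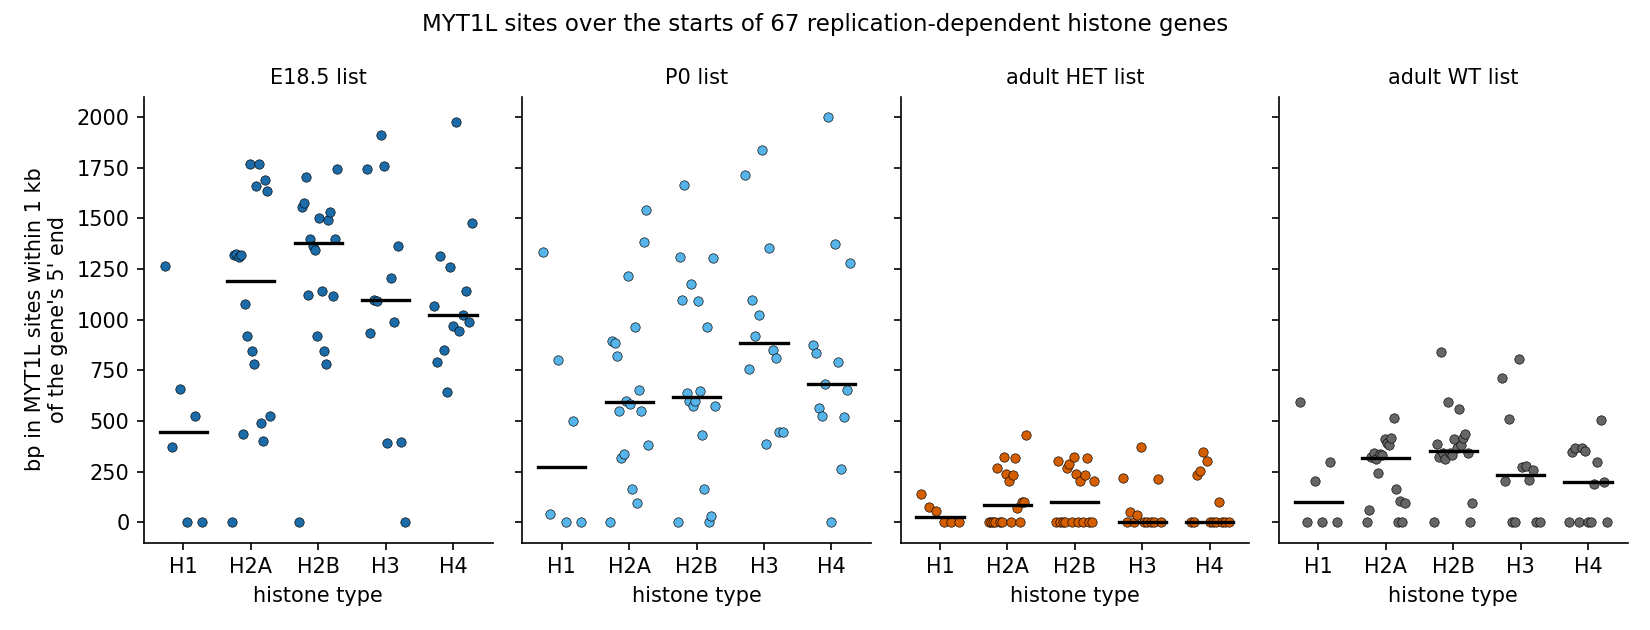
Length of DNA in MYT1L sites within 1 kb of the 5′ end (bp, vertical axis) for each of the 67 histone genes (points, side by side within a type), by histone type, in the E18.5, P0, adult HET and adult WT lists; the lines are medians over all genes of a type, those at 0 included. The points spread up to 1974 bp at E18.5 and 2001 bp at P0, but no further than 433 bp in adult HET and 842 bp in adult WT.

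By the annotated starts used here, the 6 H1 genes had the lowest share with a site of any type at E18.5, at P0 and in adult WT. Linker histone genes had a site in 4 of 6 cases at E18.5, 4 at P0, 3 in adult HET and 3 in adult WT. Hist1h1a (chromosome 13, start 23763666), a somatic H1 gene, had 1267 bp in sites at E18.5, 1335 bp at P0, 142 bp in adult HET and 593 bp in adult WT. Hist1h1c (start 23738808), another somatic H1 gene, had 658, 803, 57 and 204 bp in the same lists. Both thus had a site within 1 kb in all 4 lists, with more bp in the younger ones. For Hist1h1a the nearest adult HET site lay 859 bp away and was nearer to the start of Hist1h3a. For Hist1h1c the nearest adult sites lay downstream of the start, 944 bp away in HET and 797 bp away in WT. Hist1h1e had 526 bp at E18.5, 498 bp at P0, 0 bp in adult HET and 299 bp in adult WT, from sites that did not reach its start. Hist1h1b had 370 bp at E18.5, 43 bp at P0, 76 bp in adult HET and 0 bp in adult WT. Its nearest adult WT site was 1001 bp away, just outside the limit. No list had a site near Hist1h1t, the linker histone gene of the testis, whose nearest sites lay 1372 bp away at E18.5, 2260 bp at P0, 2641 bp in adult HET and 2547 bp in adult WT. Hist1h1d, a somatic H1 gene, also had none by its annotated start (23553262). RefSeq places its start 1770 bp downstream, at 23555032, and by that start it had 576 bp in sites at E18.5, 627 bp at P0, 10 bp in adult HET and 13 bp in adult WT. The count for H1 therefore turns on which annotated start is taken for that gene. With Hist1h1d counted, H1 would no longer have the lowest share in adult WT, where 61.5% of the H4 genes had a site.

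The H2A genes, partners of H2B in the core dimer, were covered in most lists. Of 18 genes, 17 had a site at E18.5, 17 at P0, 10 in adult HET and 15 in adult WT, and 9 had one in all 4 lists. Hist1h2ai (start 21716422) had 1769 bp at E18.5, 1214 bp at P0, 240 bp in adult HET and 413 bp in adult WT. Hist1h2ah (start 22035568) had 918, 597, 321 and 334 bp in the same lists, and it was 1 of 7 histone genes whose start was inside a site in all 4. Hist1h2ae (start 23571220) shared that feature, with 1317 bp at E18.5, 550 bp at P0, 266 bp in adult HET and 310 bp in adult WT. On chromosome 3, Hist2h2ab had 1687 bp at E18.5, 1384 bp at P0, 100 bp in adult HET and 106 bp in adult WT. Its neighbour Hist2h2ac had 1635, 1542, 100 and 0 bp. The nearest site lay 789 bp from the start of Hist2h2ac in adult HET and 1044 bp from it in adult WT. Hist2h2aa1 and Hist2h2aa2 are near-identical copies (96.3% and 100% of the 40-base stretches of the gene were repeated elsewhere), so a 40 bp read within the genes does not by itself tell them apart. Hist2h2aa1 had 491 bp at E18.5, 652 bp at P0, 72 bp in adult HET and 164 bp in adult WT, and Hist2h2aa2 had 401, 550, 0 and 0 bp. The adult HET site of Hist2h2aa1 lay 929 bp from its start and was nearer to that of Hist2h3c1. Hist3h2a on chromosome 11 (start 58954685) had 526 bp at E18.5, 382 bp at P0, 433 bp in adult HET and 94 bp in adult WT. Its adult HET value was the highest of any histone gene in that list and was above its own P0 value. Hist1h2aa, an H2A gene of the testis, was the 1 H2A gene with no site in any list, and its nearest sites were 113996 bp away at E18.5, 55924 bp at P0, 16942 bp in adult HET and 46319 bp in adult WT.

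Counts for the H2B genes were close to those for H2A. Of 18, 17 had a site at E18.5, 16 at P0, 9 in adult HET and 16 in adult WT, and the start was inside a site for 17, 11, 5 and 14 of them. Hist1h2bb (start 23746734) had 1555 bp at E18.5, 1309 bp at P0, 302 bp in adult HET and 384 bp in adult WT. Hist1h2bk (start 22035870), which shares a site with Hist1h2ah in each list, had 918, 597, 321 and 334 bp. Hist1h2bh (start 23543392) had 1365 bp at E18.5, 1177 bp at P0, 286 bp in adult HET and 594 bp in adult WT. For Hist1h2bh the nearest adult HET site lay 673 bp away and was nearer to the start of Hist1h3f. Hist1h2bb, Hist1h2bk and Hist1h2bh had a site in each list, while others had none in adult HET. Hist1h2bm had 1139 bp at E18.5, 647 bp at P0, 0 bp in adult HET and 365 bp in adult WT, and its nearest adult HET site was 5634 bp away. Hist1h2be had 1703 bp at E18.5, 1666 bp at P0, 0 bp in adult HET and 842 bp in adult WT, the most of any histone gene in the adult WT list. The start used for these values (23621124) lies inside Hist1h1e (23620629 to 23622558), and the same sites were counted for both genes. RefSeq gives Hist1h2be another start 35108 bp away, at which all 4 lists had a site, covering 1087 bp at E18.5, 1170 bp at P0, 209 bp in adult HET and 363 bp in adult WT. Hist2h2be, which encodes an H2B variant known from mouse olfactory neurons, had 1396 bp at E18.5, 1303 bp at P0 and 0 bp in adult HET and in adult WT. On chromosome 11, Hist3h2ba (start 58948920) had 1742 bp at E18.5, 574 bp at P0, 205 bp in adult HET and 96 bp in adult WT. Hist1h2br was the 1 histone gene with a site in every list but P0 (1530, 0, 316 and 438 bp), and 100% of the 40-base stretches of that gene were repeated elsewhere. Hist1h2ba, a testis H2B gene next to Hist1h2aa, had no site in any list.

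The H3 and H4 genes had sites in the younger lists almost without exception. Of 12 H3 genes, 11 had one at E18.5, 12 at P0, 5 in adult HET and 8 in adult WT, and of 13 H4 genes, 13, 12, 5 and 8. Hist1h3f (start 23544052) had 1756 bp at E18.5, 1837 bp at P0, 371 bp in adult HET and 808 bp in adult WT. Hist1h3a (start 23762386) had 1745, 1713, 217 and 711 bp. Hist1h3c (start 23745602) had 1097 bp at E18.5, 1095 bp at P0, 50 bp in adult HET and 512 bp in adult WT. Hist1h3f, Hist1h3a and Hist1h3c were the H3 genes with a site in all 4 lists. For Hist1h3c the adult HET site lay 951 bp away and was nearer to the start of Hist1h2bb. Hist1h3e had 1910 bp at E18.5, 1024 bp at P0, 37 bp in adult HET and 0 bp in adult WT. Hist2h3c2 had a site only at P0 (445 bp), with the nearest E18.5 site 1061 bp away.

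Among the H4 genes, 4 had a site in all 4 lists: Hist1h4h, Hist1h4f, Hist1h4c and Hist1h4m. For Hist1h4h (start 23531050) the covered length was 1261 bp at E18.5, 2001 bp at P0, which is the whole window, 302 bp in adult HET and 350 bp in adult WT. Hist1h4f (start 23551648) had 645, 680, 349 and 369 bp, which spread less across the lists than in the other 3 of these genes. Both had their start inside a site in every list. Hist1h4c (start 23698454) had 1314, 566, 231 and 366 bp. Hist1h4m (start 21811746) had 1021, 263, 100 and 298 bp, and 90.1% of its 40-base stretches were repeated elsewhere in the genome. In adult HET neither gene had its start inside a site. Hist1h4j had the most bp of any histone gene at E18.5 (1974 bp) and had 1372 bp at P0 and 0 bp in adult HET and in adult WT. Its nearest sites were 18654 bp away in adult HET and 12920 bp away in adult WT. Hist1h4a, Hist1h3d, Hist2h2aa2, Hist2h2be and Hist4h4 had the same pattern, with sites at E18.5 and P0 and none in the adult lists. Hist4h4, the lone member on chromosome 6 (start 136804415), had 1477 bp at E18.5 and 1280 bp at P0. Hist1h4i had a site only at E18.5 (971 bp).

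Every member falls into 1 of 8 patterns over the lists. The 26 genes with a site in all 4 lists were 9 H2A, 8 H2B, 4 H4, 3 H3 and 2 H1 genes, and they had a median of 1315.5 bp in sites at E18.5, 741.5 bp at P0, 237 bp in adult HET and 376.5 bp in adult WT. Besides those named so far, they were Hist1h2bl, Hist1h2ak, Hist1h2bn, Hist1h2bq, Hist1h2ao, Hist1h2ap and Hist1h2bg, which ran between 94 bp and 1766 bp at E18.5 and P0 and between 204 bp and 561 bp in the adult lists. The 23 genes with a site in every list but adult HET were 7 H2B, 6 H2A, 5 H3, 4 H4 and 1 H1 gene, and they had a median of 1119 bp at E18.5, 655 bp at P0, 0 bp in adult HET and 324 bp in adult WT. Beside Hist1h1e, Hist1h2be and Hist1h2bm, these were Hist1h3h, Hist1h4k, Hist1h3i, Hist1h2an, Hist1h2bp, Hist1h4n, Hist1h2ag, Hist1h2bj, Hist1h2af, Hist1h3g, Hist1h2bf, Hist1h2ad, Hist1h2ac, Hist1h2bc, Hist1h2ab, Hist1h3b, Hist1h4b, Hist2h4, Hist2h3b and Hist2h2bb. The adult WT values of these 23 genes ran from 62 bp at Hist1h2ab to 842 bp, much as in the genes with a site in all 4 lists (94 to 808 bp). The 5 genes with a site in every list but adult WT were Hist1h1b, Hist1h3e, Hist1h4d, Hist2h2ac and Hist2h3c1, with 37 to 255 bp in adult HET. The other patterns were those of E18.5 and P0 together (6 genes), E18.5 alone (Hist1h4i), P0 alone (Hist2h3c2), all but P0 (Hist1h2br) and no list (4 genes).

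Members lie in groups along the chromosomes. On chromosome 13 the members fall into 4 blocks. The first block (21715763 to 21837530, mm10) holds 18 genes, of which 18 had a site at E18.5, 17 at P0, 10 in adult HET and 16 in adult WT. In the second (22035164 to 22043676, 5 genes) the counts were 5, 4, 2 and 4, and in the third (23531050 to 23764406, 29 genes) they were 27, 27, 14 and 23. The fourth block (23933773 to 23934851) holds only the testis genes Hist1h2aa and Hist1h2ba and had no site in any list, although both starts are CpG-rich. On chromosome 3 (96219865 to 96270132, 10 genes) 9 genes had a site at E18.5, 10 at P0, 4 in adult HET and 5 in adult WT. On chromosome 11 (58948920 to 58956830) both genes had a site in all 4 lists. The 49 other protein-coding genes whose starts lie among the members of these clusters were all on chromosome 13. Many of them are vomeronasal receptor genes, and only 8.16% of the 49 are CpG-rich. A site was found for 2 at E18.5 (4.08%, against 27.7% of all protein-coding genes) and for 5 at P0 (10.2%, against 41.8%). In adult WT 0 had a site (against 13.9%). In adult HET 5 did (10.2%), which was near the share of all protein-coding genes (12.1%).

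The median midpoint of the sites near histone genes lay upstream of the start in each list. The midpoint of a site near a histone gene lay at a median of -61 bp from the nearest start at E18.5, -53 bp at P0, -80 bp in adult HET and -88 bp in adult WT, where negative is upstream. Near all protein-coding genes the medians were -43, 25.5, 172 and -16 bp in the same order of lists. At P0 the histone midpoints spread widely, with quartiles of -184.5 and 386 bp, and 26 of the 63 sites held no histone start. Within 250 bp of the nearest start were 56% of the midpoints at E18.5, 52.4% at P0, 73.9% in adult HET and 78.6% in adult WT. Near all protein-coding genes these shares were 54.6%, 41.6%, 28.1% and 43.0%. Thus in both adult lists a larger share of midpoints was near the start at histone genes than at all genes. Read every 50 bp, coverage first peaked at -100 bp at E18.5 (89.6% of histone genes), at -200 bp at P0 (73.1%), and at -100 bp in both adult HET (31.3%) and adult WT (64.2%). For CpG-rich genes that are not histone genes, the peaks were 38.9% at E18.5, 48.2% at P0, 4.06% in adult HET and 9.62% in adult WT.

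**Figure D3:**
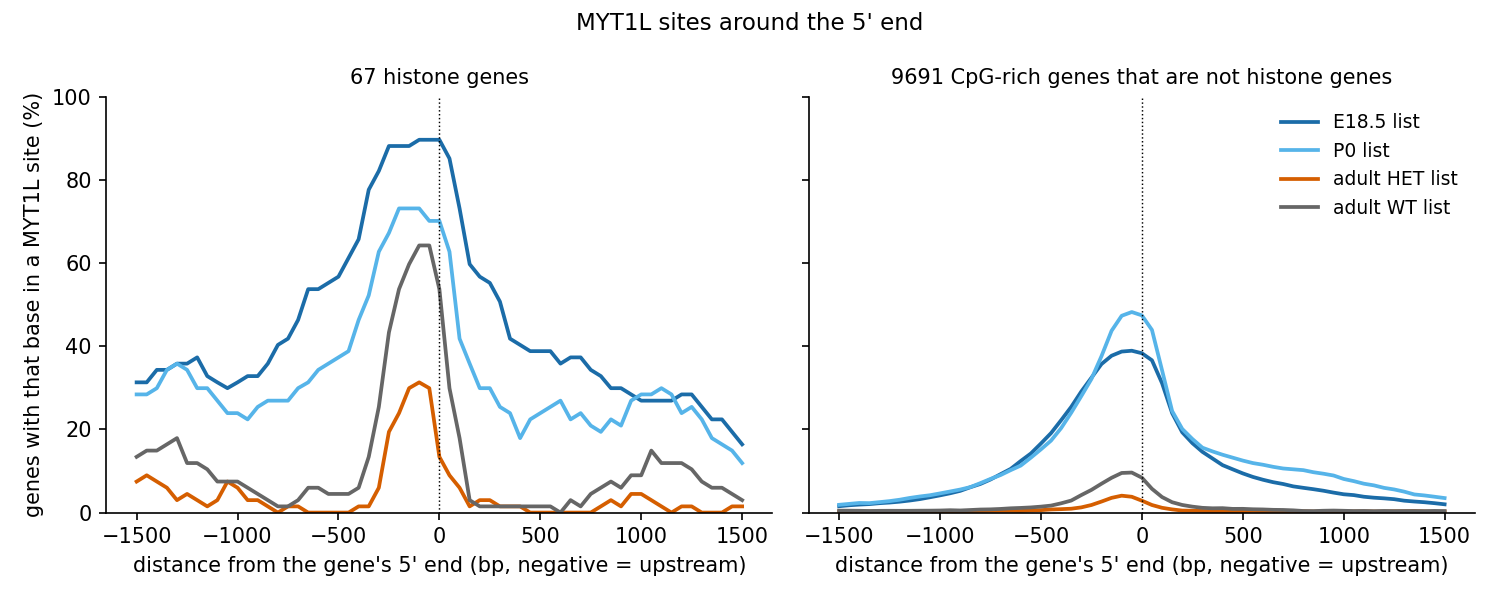
Share of genes (%, vertical axis) whose base at a given distance from the 5′ end (bp, horizontal axis, negative upstream) was inside a MYT1L site, for the 67 histone genes (left) and CpG-rich genes that are not histone genes (right), 1 line per list. Over histone genes the peaks were 89.6% at E18.5, 73.1% at P0, 31.3% in adult HET and 64.2% in adult WT, and the adult lines are highest within 250 bp of the start.

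The stretch between head-to-head H2A and H2B genes was often covered in the adult WT list as well as in the younger ones. There were 12 such pairs, with 176 to 306 bp between the starts. A single site covered both starts in 11 pairs at E18.5, 7 at P0, 2 in adult HET and 10 in adult WT. Among the 137 other protein-coding pairs whose starts stand head to head at the same range of distances, a single site covered both in 75.2% at E18.5, 55.5% at P0, 0.73% in adult HET and 15.3% in adult WT. For the H2A and H2B pairs those shares were 91.7%, 58.3%, 16.7% and 83.3%. In adult HET a further set of pairs had a site that lay between the starts without reaching both, so that 6 pairs had a site in the stretch. The pair Hist1h2ah and Hist1h2bk, 302 bp apart, had 1 site over both starts in each list, 918 bp wide at E18.5, 597 bp at P0, 321 bp in adult HET and 334 bp in adult WT. Hist1h2ae and Hist1h2bg, 176 bp apart, had the same, with widths of 1396, 418, 266 and 310 bp. Between Hist1h2bl and Hist1h2ai, 279 bp apart, the site of the adult HET list was 240 bp wide and covered 85.7% of the stretch. The other 3 lists covered that stretch whole.

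At P0 the coverage of the 12 H2A and H2B pairs was all or none. Among the 137 other pairs, 55.5% had 1 site over both starts at P0 and 65.7% had a site in the stretch. The stretch between the H2A and H2B starts was covered whole in 7 pairs (58.3%) and not at all in 5. Of those 5, the pairs Hist1h2an and Hist1h2bp, Hist1h2ap and Hist1h2br, Hist1h2ag and Hist1h2bj, and Hist1h2ac and Hist1h2bc were covered whole at E18.5 and in adult WT. At Hist1h2ac the P0 sites stood to the sides of the pair, the nearest 316 bp from its start, and those sites still gave it 886 bp within 1 kb, against 1324 bp at E18.5. The fifth pair, Hist1h2ba and Hist1h2aa, was not covered in any list. Hist2h2ac and Hist2h2be on chromosome 3 were covered whole at E18.5 and P0 and not at all in the adult lists.

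**Figure D4:**
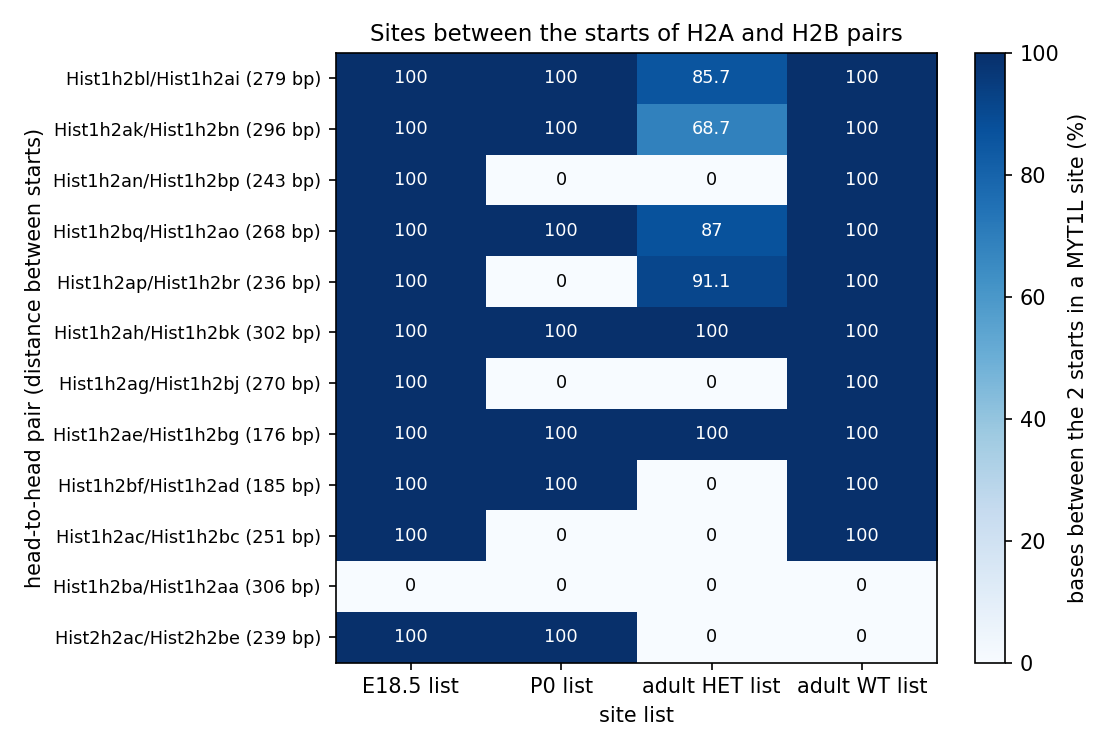
Share of the bases between the 2 starts that was inside a MYT1L site (%, colour and printed value) for the 12 head-to-head H2A and H2B pairs (rows, with the distance between the starts in bp) in the E18.5, P0, adult HET and adult WT lists (columns). The E18.5 column is at 100 in 11 pairs and the adult WT column in 10, while in adult HET only 2 pairs are covered whole and 4 in part.

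Sites near histone genes were often at the same place in several lists. Of the adult HET sites near histone genes, 91.3% overlapped an E18.5 site by at least 1 bp, 78.3% a P0 site and 69.6% an adult WT site. For adult HET sites near all protein-coding genes, those shares were 31.9%, 30.7% and 17.9%. Of the adult WT sites near histone genes, 92.9% overlapped an E18.5 site, 78.6% a P0 site and 38.1% an adult HET site, against 49.3%, 45.1% and 15.6% near all protein-coding genes. Most adult sites at histone genes thus touched a place that the E18.5 list also held. In the other direction, 40% of the E18.5 sites near histone genes overlapped an adult HET site and 66% an adult WT site, against 14.7% and 25.3% near all protein-coding genes. Between P0 and E18.5, 87.3% of the P0 sites near histone genes overlapped an E18.5 site (45.6% near all protein-coding genes), and 88.0% of the E18.5 sites overlapped a P0 site (88.4%). The share of E18.5 sites found at P0 was thus no higher at histone genes than elsewhere. Sites near histone genes were also the wider ones, and the part of width in these shares was not tested.

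Other histone genes and the machinery of histone expression showed lower shares in the adult lists than the 67 histone genes. Over all protein-coding genes the shares were 27.7% at E18.5, 41.8% at P0, 12.1% in adult HET and 13.9% in adult WT. The 14 replication-independent histone genes measured, which supply variants outside S phase, had a site in 7 cases at E18.5, 8 at P0, 4 in adult HET and 4 in adult WT. Of these, H2afv, an H2A.Z gene, had sites in all 4 lists, covering 1800 bp at E18.5, 966 bp at P0, 103 bp in adult HET and 604 bp in adult WT. H2afj also did, with 573, 392, 59 and 277 bp. Among 19 genes for histone gene expression, mRNA processing and chaperones, 15 had a site at E18.5 (78.9%) and 18 at P0 (94.7%). In adult HET 3 had one (15.8%), which was near the share of all protein-coding genes, and in adult WT 6 did (31.6%). None had one in all 4 lists, against 2.91% of all protein-coding genes. Npat, the S-phase coactivator of histone genes, had 677 bp at E18.5, 539 bp at P0 and 0 bp in both adult lists. Slbp, which binds the stem-loop of histone mRNAs, had 1000 bp at E18.5, 667 bp at P0 and 0 bp in both adult lists. Npat and Slbp were among the 11 of the 19 with a site in neither adult list. A site was found in adult WT alone for 5, in adult HET alone for 2 and in both for 1. That gene, Asf1b, had 824 bp at E18.5, 0 bp at P0, 383 bp in adult HET and 433 bp in adult WT. The 72 cytosolic ribosomal protein genes, a further set for comparison, had a site in 77.8% of cases at E18.5, 87.5% at P0, 16.7% in adult HET and 31.9% in adult WT. Histone genes stood above that set most in the adult lists, with 47.8% in adult HET and 74.6% in adult WT. No test was made of these differences.

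The limit of 1 kb ran close to some genes. At E18.5 the outermost counted gene was Hist1h1b (631 bp from its nearest site) and the first not counted was Hist2h3c2 (1061 bp). At P0 they were Hist2h2bb (969 bp) and Hist1h1d (1115 bp). In adult HET they were Hist1h3e (964 bp) and Hist2h2be (1028 bp). In adult WT they were Hist3h2a (907 bp) and Hist1h1b (1001 bp). With starts taken as the 5′ end of each gene alone, the counts of histone genes were the same, and the shares of all protein-coding genes were 25.1% at E18.5, 37.5% at P0, 7.58% in adult HET and 10.5% in adult WT.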

How the data were processed

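MYT1L CUT&RUN was processed by the authors with the nf-core/cutandrun pipeline, version 1.0, on build mm10. Not given in the sources used here are the aligner, the peak caller with its threshold, and how IgG was used. The authors deposited 1 list of site positions in bp per group, merged over 3 libraries, with no score, and the 12 IgG libraries are not analysed here. Some adult titles read Myt2l or Myt3l and were taken as MYT1L, because their descriptions name the MYT1L list.

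Genes and starts (every annotated transcript) came from GENCODE M21 on GRCm38, the assembly of mm10, and promoters from RefSeq. A gene was CpG-rich with an observed to expected CpG ratio of at least 0.6 and GC of at least 50% within 500 bp of its 5′ end. Copies of 40-base stretches were counted on both strands of 21 chromosomes. The distance and copy steps were tested on simulated data. Analyses ran in Python 3.11.15, numpy 2.4.6, pandas 2.3.3 and matplotlib 3.10.9. Alternatives varied the distance, the starts, the site width, the sharing of sites and the sequence copies. All members are accounted for, and values are given for those with sites in all 4, both adult or no lists and for the 5 with the most covered bp per list, and for others named for their pattern after the values were seen. The members, the gene lists and the words were chosen with earlier results of these data known.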

Additional observations from a re-analysis of the deposited data

How the results depend on the processing

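Of 54 alternatives, 46 gave counts within 1.5 times the main one. The other 8 changed the adult HET count or the counts in all 4 lists and in both adult lists. With the start itself inside a site, 9 histone genes counted in adult HET, against 32 within 1 kb, 7 in all 4 lists and 8 in both adult lists. With each site given to the protein-coding gene with the nearest start, the counts were 21, 10 and 14. With 5 kb, the distance the study used, 46 genes counted in all 4 lists and 46 in both adult lists. Each such setting is stricter or looser by construction. For these counts in all 4 lists and in both adult lists, and for the nearest-start rule, no shares of all protein-coding genes are given. RefSeq starts, an alternative chosen after seeing the data, added Hist1h1d to every count, and in adult HET also added Hist1h2be and dropped Hist1h3c, giving 63 at E18.5, 62 at P0, 33 in adult HET and 51 in adult WT. At 5 kb the counts were 65 at E18.5, 65 at P0, 47 in adult HET and 61 in adult WT, and the shares of all protein-coding genes were 31.7%, 48.7%, 30.4% and 24.6%.

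No paired analysis was possible because each list merges its libraries and no value per library was used. Leaving out a replicate was not possible for the same reason. Depth per library was unknown, so a missing site says only that none was listed.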
